A study of Homo sapiens with 3 samples.

Results

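The replication-dependent histone genes encode the linker histone H1 and the core histones H2A, H2B, H3 and H4 that package newly made DNA. They were taken as every gene symbol of the HIST1, HIST2, HIST3 and HIST4 clusters in the expression table, without the symbols that mark a pseudogene by the letters PS and a number. This rule gave 66 genes of the 29689 in the table, with 5 H1, 15 H2A, 19 H2B, 13 H3 and 14 H4 genes. Of these, 49 belong to the HIST1 cluster, 12 to HIST2, 4 to HIST3 and 1 to HIST4. HIST2H2BC, HIST2H2BD and HIST3H2BA are annotated as pseudogenes under symbols that the rule keeps.

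RNAseq was performed on xenograft tumors of SUM-149, a triple-negative breast cancer (TNBC) cell line, grown from cells mixed with Matrigel in the mammary fat pads of female Nu/Nu mice, an immunodeficient host. The labels name vehicle for the control tumor, dinaciclib for the CDK2 inhibitor (CDK2i) tumor and EPZ6438 for the EZH2 inhibitor (EZH2i) tumor, each inhibitor given for 10 days. There was 1 library for each of the 3 groups, so no value below has a replicate, no p-value was computed, and tumor and treatment cannot be told apart. A counting interval at 95%, given below in brackets, covers counting error only and not the difference between tumors. Dinaciclib also inhibits other cyclin-dependent kinases, and the methods for the sequenced tumors call the drugs only CDK2i and EZH2i. The deposited unit is log2 FPKM, the log2 of fragments per kilobase of gene and per M fragments (M, 1000000), in which levels can be compared between genes.

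Whole-library values set the frame for every change below. The steps between the lowest FPKM values gave a depth of 16.8 M fragments in vehicle, 19.1 M in CDK2i and 17.5 M in EZH2i. Epithelial markers were high in all 3 tumors, with a summed FPKM of 5079 under vehicle, 12166 under CDK2i and 4787 under EZH2i over EPCAM, CDH1 and 4 keratins, KRT5, KRT14, KRT17 and KRT18. All 6 were higher in CDK2i than in vehicle, by a median of 0.84. The 6 fibroblast markers summed to between 24.4 and 38.3 FPKM, the endothelial markers in the table to less than 1 FPKM and the leukocyte markers to less than 1 FPKM. No step that separates mouse reads is given in the sources used here, and histone coding sequence is much alike in mouse and human. Genes whose log2 FPKM averaged above 1 and that were listed at 0 in no library are called expressed below, and over these 11109 genes the median of the log2 changes was −0.11 for CDK2i and 0.19 for EZH2i.

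These genes are transcribed mainly in S phase, when the kinase CDK2 with cyclin E phosphorylates NPAT, an activator of the histone clusters. Their mRNAs lack a poly(A) tail. In its place they end in a short stem-loop that SLBP binds and that the U7 snRNP helps to cut, and outside S phase such mRNA is made little and degraded fast. Several of the genes can also give a longer, polyadenylated mRNA in cells that have left the cycle. EZH2, the target of the other inhibitor, methylates a lysine of histone H3, so histone H3 is also its substrate.

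The stem-loop was present in nearly all members. A perfect stem of 6 bases around a loop of 4 bases was found within 150 bases after the stop codon in 59 of the 61 members with a coding transcript (96.7%), against 88 of 19456 other protein-coding genes (0.452%). HIST1H2AG and HIST1H2AK had no match of this form. The core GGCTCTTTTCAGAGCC stood in 34 members, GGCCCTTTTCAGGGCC in 9, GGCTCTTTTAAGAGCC in 8 and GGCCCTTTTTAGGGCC in 4, and the other 4 cores stood in 1 member each. The members shown here are those on which the results below turn, on GRCh37, with the stem-loop in capitals.
HIST3H2A, chr1:228645065-228645090, minus strand: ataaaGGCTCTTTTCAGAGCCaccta
HIST3H2BB, chr1:228646234-228646259, plus strand: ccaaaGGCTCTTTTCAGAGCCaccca
HIST1H2BK, chr6:27114140-27114165, minus strand: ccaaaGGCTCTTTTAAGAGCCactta
HIST1H2AE, chr6:26217640-26217665, plus strand: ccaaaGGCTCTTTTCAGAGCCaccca
HIST2H2BE, chr1:149857733-149857758, minus strand: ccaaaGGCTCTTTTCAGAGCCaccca
HIST1H3G, chr6:26271146-26271171, minus strand: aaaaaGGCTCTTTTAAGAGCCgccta
HIST1H4C, chr6:26104540-26104565, plus strand: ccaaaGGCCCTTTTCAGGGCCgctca
HIST1H4K, chr6:27798951-27798976, minus strand: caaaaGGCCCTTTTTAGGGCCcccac
The stem sorted the H4 genes from the rest. All 14 H4 stem-loops began with GGCCCT, which stood in 0 of the other 45, and those 45 of H1, H2A, H2B and H3 genes began with GGCTCT.

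Most members were weakly expressed. Of the 66 members, 20 passed the limit for expressed genes, 1 H1, 4 H2A, 8 H2B, 3 H3 and 4 H4 genes, and 16 were listed at 0 in at least 1 library. Only HIST2H2AB was listed at 0 in all of them. The summed FPKM of all members was 377 in vehicle, 390 in CDK2i and 301 in EZH2i, or 0.0788%, 0.0904% and 0.0743% of the FPKM of all genes. The 4 most abundant members of the vehicle tumor, HIST3H2A, HIST1H2BK, HIST1H2AC and HIST1H2BD, held 73.3% of the summed FPKM under vehicle, 68.2% under CDK2i and 61.9% under EZH2i.

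**Figure D1:**
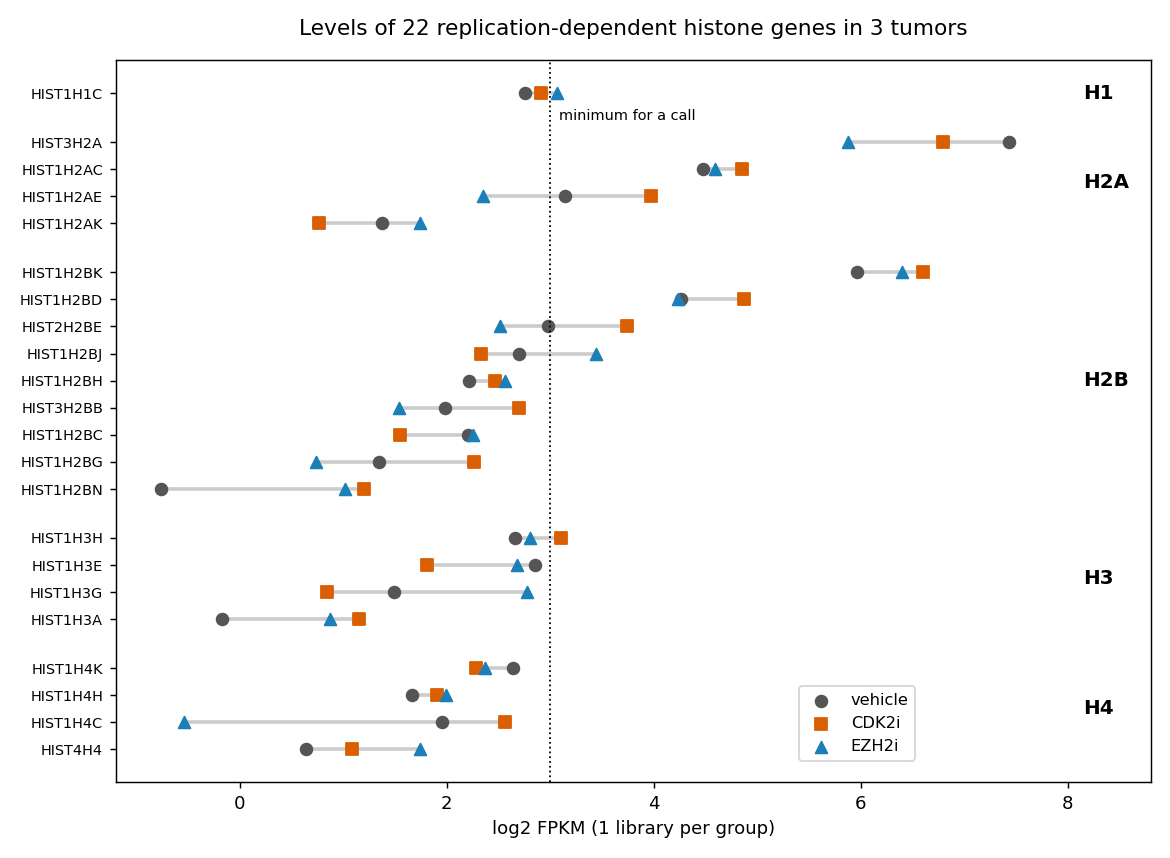
Level of 22 members in the vehicle (circle), CDK2i (square) and EZH2i (triangle) tumors, in log2 FPKM, grouped by histone type, with 1 library per group and a grey line from the lowest to the highest value. HIST3H2A and HIST1H2BK lie to the right of every other member in all 3 tumors, HIST3H2A is highest in vehicle and lowest in EZH2i, and HIST1H4C is lowest in EZH2i.

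HIST3H2A, an H2A gene on chromosome 1 outside the large HIST1 cluster, had the highest level of any member in the vehicle and CDK2i tumors. Its level was 173 FPKM under vehicle, 111 under CDK2i and 58.9 under EZH2i, so the vehicle tumor was the highest and the EZH2i tumor the lowest. This gene alone made up 45.8% of the sum over members in vehicle, 28.5% in CDK2i and 19.6% in EZH2i. On the log2 scale it differed from vehicle by −0.64 [−0.75, −0.52] with CDK2i and by −1.55 [−1.70, −1.41] with EZH2i, from an estimated 1482 fragments in vehicle, 1085 in CDK2i and 527 in EZH2i. Without HIST3H2A the sum of the other members was 204 FPKM in vehicle, 279 FPKM in CDK2i and 242 FPKM in EZH2i, so the order of the tumors in the total depended on this gene. With HIST3H2A the EZH2i tumor had the lowest total, and without it the vehicle tumor did, except that with each library centred on the median of all expressed genes the EZH2i and vehicle totals without it differed by −0.01 on the log2 scale. With a trend of the changes with GC content and length removed, the totals with HIST3H2A were 448 FPKM for CDK2i and 457 FPKM for EZH2i, so vehicle was the lowest with this gene too.

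HIST1H2BK, an H2B gene on chromosome 6, ranked next and took the first place in the EZH2i tumor. Its level was 62.2 FPKM under vehicle, 96.9 under CDK2i and 84.2 under EZH2i. Both treated tumors were above the vehicle tumor, by 0.64 [0.48, 0.80] with CDK2i and 0.44 [0.27, 0.60] with EZH2i on the log2 scale. It held between 53.3% and 58.1% of the H2B FPKM in each tumor. HIST1H2AC, the next H2A gene, had 22.2 FPKM in vehicle, 28.8 FPKM in CDK2i and 24.2 FPKM in EZH2i, and its interval lay above 0 only in CDK2i, at 0.38 [0.11, 0.65].

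The sums by histone type moved apart. H2A summed to 212 FPKM under vehicle, 165 under CDK2i and 97.1 under EZH2i, a log2 change of −0.36 [−0.45, −0.26] and −1.12 [−1.24, −1.01], and HIST3H2A made up 81.7% of it in vehicle, 67.2% in CDK2i and 60.6% in EZH2i. H2B summed to 117, 174 and 145 FPKM in the same order, a change of 0.57 [0.46, 0.68] and 0.31 [0.19, 0.43], of which the second was 0.06 [−0.06, 0.18] after centring. The H2B sum was thus below the H2A sum in vehicle and above it in both treated tumors. H3 summed to 24.0 FPKM in vehicle, 21.7 FPKM in CDK2i and 30.3 FPKM in EZH2i, and its interval left out 0 in EZH2i, at 0.34 [0.07, 0.60], but not in CDK2i, at −0.15 [−0.43, 0.13]. After centring the EZH2i change of the H3 sum was 0.09 [−0.18, 0.35]. H4 summed to between 17.4 and 21.0 FPKM and H1 to between 7.30 and 9.01 FPKM. On the deposited values no change of either sum against vehicle left 0 outside its interval. After centring the CDK2i changes did, at 0.45 [0.11, 0.8] for H4 and 0.42 [0.02, 0.81] for H1. The centred EZH2i changes, −0.09 [−0.45, 0.26] for H4 and 0.05 [−0.34, 0.45] for H1, still spanned 0. HIST1H1C, which encodes a linker histone, made up between 87.3% and 92.6% of the H1 sum. With 6.76 FPKM under vehicle, 7.50 under CDK2i and 8.34 under EZH2i its intervals spanned 0.

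**Figure D2:**
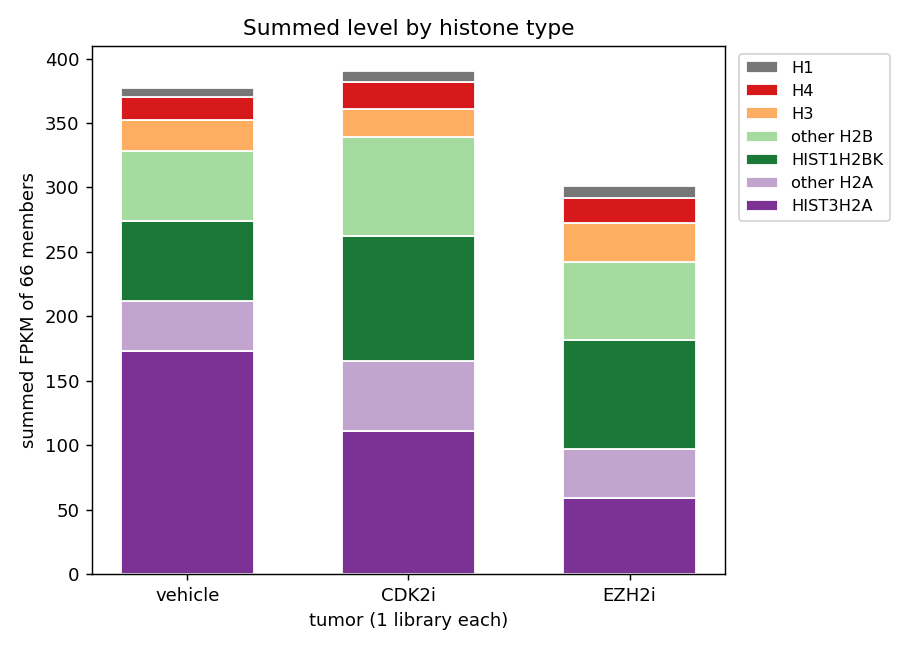
Summed FPKM of the 66 members in each tumor, as bars from 0 with 1 library each, stacked by histone type with the most abundant H2A and H2B genes shown on their own. The HIST3H2A segment shrinks from 173 FPKM in vehicle to 58.9 in EZH2i, while the H2B segments together are smallest in vehicle, at 117 FPKM.

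In the CDK2i tumor the expressed members lay slightly higher than in vehicle, led by H2B genes. Their median log2 change was 0.32, with 13 of 20 higher and 7 lower, against a median of −0.11 and 41.9% higher over all expressed genes. Of the 8 expressed H2B genes 6 were higher, with a median of 0.62. The H4 genes had a median of 0.35, the H3 genes of −0.65 and the H2A genes of −0.11, which became 0.07 after centring and 0.04 with the summed FPKM of all genes made equal. A call needed a fold past 2 and a log2 FPKM above 3 in at least 1 of the compared tumors, the study's limits without its p-value. By this rule 0 of the 7 members that could be called were higher and 0 were lower, against 3.27% and 8.07% of all genes that could be called. Single members moved in each direction, and at the lower limit of log2 FPKM 1 the rule called 2 of 22 members higher and 1 lower, against 4.15% and 13.2% of all genes.

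Among H2B genes, HIST2H2BE, a member of the HIST2 cluster on chromosome 1, had 7.88 FPKM in vehicle, 13.4 FPKM in CDK2i and 5.72 FPKM in EZH2i. HIST1H2BD had 19.2 FPKM under vehicle, 29.2 under CDK2i and 18.8 under EZH2i. In both genes the CDK2i tumor stood above the other tumors, by 0.77 [0.56, 0.97] and 0.61 [0.32, 0.90] against vehicle. HIST1H2BG had the same order of tumors at a lower level, with 2.54 FPKM in vehicle, 4.81 FPKM in CDK2i and 1.67 FPKM in EZH2i, and no interval, since no transcript length was at hand for it. HIST1H2BN was called at the lower limit, from 0.59 FPKM in vehicle to 2.29 in CDK2i and 2.02 in EZH2i. That change of 1.96 [0.66, 3.82] in CDK2i rests on an estimated 5 fragments in vehicle. Against these, HIST1H2BC had 4.61 FPKM under vehicle, 2.93 under CDK2i and 4.76 under EZH2i, lowest in CDK2i by −0.65 [−1.44, 0.11].

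HIST1H2AE, the third H2A gene by its level in vehicle, had 8.82 FPKM in vehicle, 15.7 FPKM in CDK2i and 5.11 FPKM in EZH2i. It was highest in CDK2i and lowest in EZH2i, with changes of 0.83 [0.42, 1.24] and −0.79 [−1.36, −0.26] against vehicle. HIST1H2AK, at 2.59, 1.70 and 3.35 FPKM in vehicle, CDK2i and EZH2i, had the opposite order, with intervals against vehicle that spanned 0.

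Of the 3 expressed H3 genes, 2 were lower in CDK2i. HIST1H3E had 7.22 FPKM under vehicle, 3.51 under CDK2i and 6.42 under EZH2i. Its change of −1.04 [−1.72, −0.40] in CDK2i was past the fold of 2 at the lower limit. HIST1H3G had 2.81 FPKM in vehicle, 1.79 FPKM in CDK2i and 6.84 FPKM in EZH2i, lowest in CDK2i and highest in EZH2i. HIST1H3H, the most abundant H3 gene over the 3 tumors, had 6.30, 8.62 and 7.0 FPKM in vehicle, CDK2i and EZH2i, with intervals that spanned 0. HIST1H3A, below the limit for expressed genes, had 0.89 FPKM under vehicle, 2.23 under CDK2i and 1.83 under EZH2i and was called higher in CDK2i at the lower limit. The H3 genes thus did not share 1 order of the tumors.

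**Figure D3:**
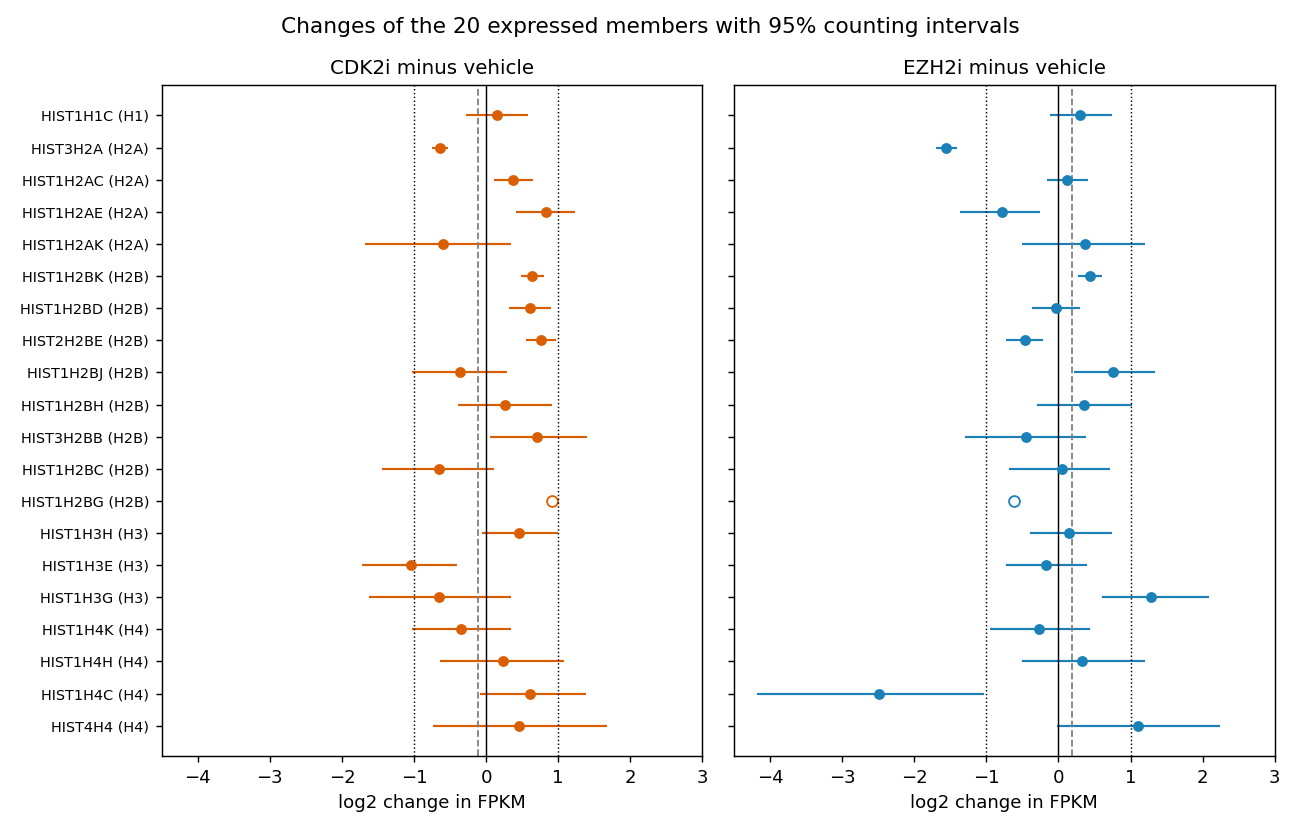
Log2 change in FPKM of the 20 expressed members in the CDK2i and EZH2i tumors against vehicle, with 95% counting intervals as bars, the fold of 2 as dotted lines and the median of all expressed genes as a dashed line; the open circle is a gene without an interval. In CDK2i 6 intervals lie above 0 and 2 below, and in EZH2i 3 lie above and 4 below.

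In the EZH2i tumor the expressed members were spread around 0. Their median log2 change was 0.09, with 11 of 20 higher and 9 lower, against 0.19 and 61.5% higher over all expressed genes, and after centring it was −0.16. By type the medians were 0.30 for H1, −0.33 for H2A, 0.01 for H2B, 0.15 for H3 and 0.03 for H4, of which the last 3 were below 0 after centring, at −0.24, −0.10 and −0.22. HIST3H2A was the 1 member of 7 called lower and 0 were called higher, against 4.42% and 8.93% of all genes. Once the trend with GC content and length was taken out, its change was −0.77 and 0 members were called lower and 2 higher. No share over all genes is given for those calls. At the lower limit 2 of 23 members were lower, HIST3H2A and HIST1H4C, against 5.29% of all genes. The 4 members higher at that limit were HIST1H2BN, HIST1H3G, HIST4H4 and HIST1H2AG, against 12.7% of all genes. HIST1H2AG is named here because of its call and stands outside the rule for named genes.

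The H4 gene HIST1H4C had the largest decrease of any expressed member. It had 3.88 FPKM in vehicle, 5.92 FPKM in CDK2i and 0.69 FPKM in EZH2i, an estimated 26, 46 and 5 fragments. The EZH2i tumor was far below both others, by −2.50 [−4.18, −1.04] against vehicle and −3.10 [−4.76, −1.75] against CDK2i. The other expressed H4 genes did not share this decrease. HIST1H4K had 6.22, 4.87 and 5.16 FPKM in vehicle, CDK2i and EZH2i, and HIST1H4H 3.17, 3.74 and 3.98. HIST4H4, the single gene of its cluster on chromosome 12, had 1.55 FPKM under vehicle, 2.12 under CDK2i and 3.33 under EZH2i, with an interval of [−0.02, 2.24] around its change of 1.10 in EZH2i.

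HIST1H3G was the expressed H3 gene with the largest increase in EZH2i, at 1.29 [0.61, 2.08]. HIST1H2BJ, an H2B gene, had 6.47 FPKM in vehicle, 5.02 FPKM in CDK2i and 10.9 FPKM in EZH2i, highest in EZH2i by 0.75 [0.21, 1.33]. HIST2H2BE, in contrast, was lower in EZH2i than in vehicle, by −0.46 [−0.72, −0.21]. HIST1H2BH had 4.63, 5.53 and 5.91 FPKM in vehicle, CDK2i and EZH2i, with intervals that spanned 0.

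The treated tumors were also compared directly, without the vehicle library that both changes above share. The median difference of EZH2i minus CDK2i over the expressed members was −0.06, with 10 higher and 10 lower, against 0.35 and 66.9% higher over all expressed genes. This median was −0.49 after centring, 0.03 with equal sums, 0.12 with equal sums without ribosomal protein and mitochondrial genes, and 0.20 with the GC and length trend described further down removed, so its sign depended on the scaling. HIST1H2BJ was the 1 member of 9 called higher in EZH2i, against 17.5% of all genes, and this call was lost after centring and with 1 added to FPKM. HIST1H2AE and HIST2H2BE were the 2 called lower, by −1.61 [−2.13, −1.14] and −1.23 [−1.46, −1.0], against 6.53% of all genes. At the lower limit 5 of 24 members were lower in EZH2i, with HIST1H2BG, HIST1H4C and HIST3H2BB in addition, against 6.75% of all genes. At that limit HIST1H3G and HIST1H2BJ were the 2 that were higher, against 25.8%. The largest of these differences were 1.94 [1.15, 2.82] for HIST1H3G and −3.10 for HIST1H4C.

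Neighboring genes that share 1 promoter region did not always move together. There were 10 pairs of members that start back to back, with 169 to 318 bases between their start sites. HIST1H2BO is paired both with HIST1H2AM, at 239 bases, and with HIST1H3J, at 318 bases. The annotated start of HIST1H3J lies inside HIST1H2AM on the same strand, so the pair at 318 bases is not one of direct neighbors. In 2 pairs both genes were expressed. HIST3H2A and HIST3H2BB, an H2A and an H2B gene with 229 bases between them, differed in level by a ratio of 43.7 in vehicle, 17.2 in CDK2i and 20.3 in EZH2i. HIST3H2BB had 3.95 FPKM under vehicle, 6.47 under CDK2i and 2.90 under EZH2i. In CDK2i it was higher by 0.71 [0.05, 1.40] while HIST3H2A was lower, and in EZH2i both values were lower, HIST3H2BB by −0.45 [−1.29, 0.39]. HIST1H2AC and HIST1H2BC, the other pair, differed by 0.38 and −0.65 in CDK2i and by 0.13 and 0.05 in EZH2i.

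Known promoter motifs were found in these genes at higher shares than in other promoters. RefSeq promoters on GRCh38, from 250 bases before to 50 after the start, were at hand for 58 members and were searched on both strands. The letters CCAAT were found in 48 of the 58 (82.8%), against 35.6% of 27247 other promoters. They stood in every H1, H2A, H2B and H3 promoter searched but in 2 of 12 H4 promoters. TATAAA was found in 38 of 58 (65.5%), against 11.8%. The octamer ATTTGCAT, known from H2B promoters as a site for the OCT factors, was found in 12 of 16 H2B and 9 of 14 H2A promoters, against 1.73% of the others. Windows of genes that start back to back overlap, as for HIST1H2BC and HIST1H2AC, so the same match can count for both genes. A run of TTTATAAA counts once on each strand, a match is no evidence of binding, and motif content was not tested against the changes. The promoters of the 2 most abundant members and of the H4 gene with the highest mean log2 FPKM are shown with every match in capitals, on either strand. The window of HIST3H2A also holds the start of HIST3H2BB on the opposite strand.
HIST3H2A, chr1:228457824-228458123, minus strand: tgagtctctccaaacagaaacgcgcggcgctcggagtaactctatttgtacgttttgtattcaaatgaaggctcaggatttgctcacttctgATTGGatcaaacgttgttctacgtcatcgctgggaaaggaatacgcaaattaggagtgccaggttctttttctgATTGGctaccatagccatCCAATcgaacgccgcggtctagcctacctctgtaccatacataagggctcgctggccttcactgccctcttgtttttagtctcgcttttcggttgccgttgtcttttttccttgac
HIST1H2BK, chr6:27146809-27147108, minus strand: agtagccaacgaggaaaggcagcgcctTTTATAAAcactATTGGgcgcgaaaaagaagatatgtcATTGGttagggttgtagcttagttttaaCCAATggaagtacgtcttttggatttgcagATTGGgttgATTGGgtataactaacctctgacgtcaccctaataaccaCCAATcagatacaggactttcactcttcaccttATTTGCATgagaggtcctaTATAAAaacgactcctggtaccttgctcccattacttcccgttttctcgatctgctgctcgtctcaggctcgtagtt
HIST1H4K, chr6:27831511-27831810, minus strand: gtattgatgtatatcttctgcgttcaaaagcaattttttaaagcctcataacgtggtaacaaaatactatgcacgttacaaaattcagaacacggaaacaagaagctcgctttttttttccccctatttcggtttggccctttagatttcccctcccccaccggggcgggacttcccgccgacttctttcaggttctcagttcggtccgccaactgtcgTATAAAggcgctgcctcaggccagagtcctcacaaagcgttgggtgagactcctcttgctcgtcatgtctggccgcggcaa
HIST3H2A holds 3 copies of CCAAT and neither of the other motifs, HIST1H2BK 6 copies of CCAAT, 3 of TATAAA and 1 octamer, and HIST1H4K 1 TATAAA alone.

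The annotated transcript end separated members by level. Of the 59 members with a stem-loop, 17 have an annotated transcript that runs more than 100 bases past it, and in 42 every annotated transcript ends at it. Among the 17, 11 were expressed (64.7%), with a median log2 FPKM of 1.98 in vehicle, 1.81 in CDK2i and 1.99 in EZH2i. Among the 42, 7 were expressed (16.7%), with medians of −1.38, −0.71 and −0.71. The second group summed to 112 FPKM in vehicle, 162 FPKM in CDK2i and 139 FPKM in EZH2i, lowest in vehicle, and most of it came from HIST1H2BK. The first summed to 257, 219 and 150 FPKM, lowest in EZH2i, with HIST3H2A as its largest part. Over the expressed genes of each group the median change was 0.38 and 0.26 in CDK2i and 0.05 and 0.30 in EZH2i. Whether the libraries were made from polyadenylated RNA is not given in the sources used here, so these levels cannot be read as total histone mRNA.

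**Figure D4:**
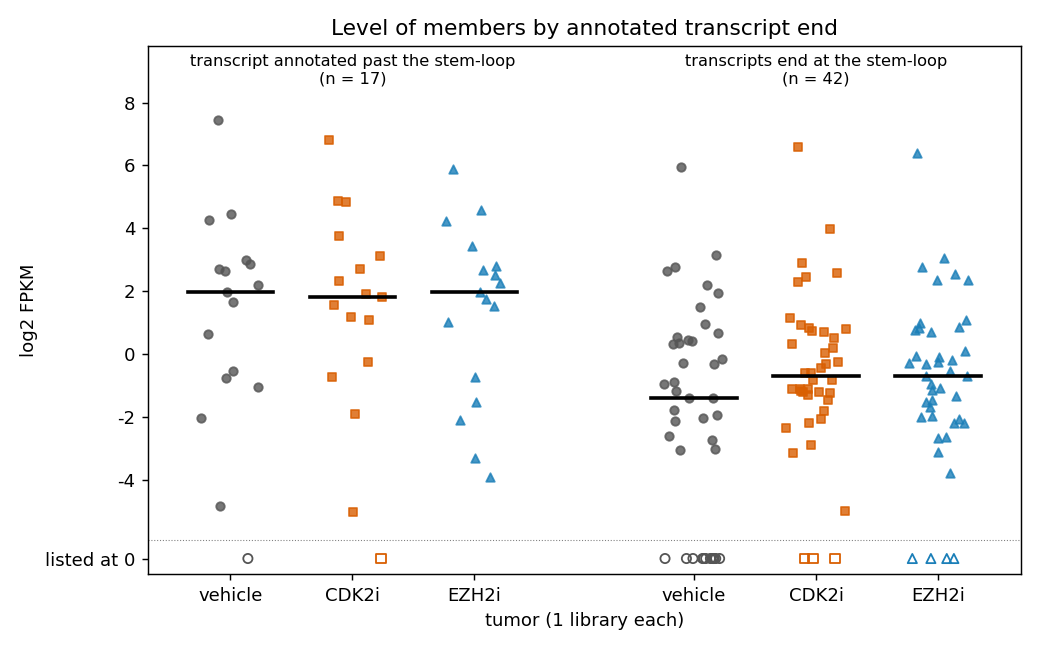
Log2 FPKM of the 59 members with a stem-loop in each tumor, 1 point per gene and 1 library per tumor, for the 17 with a transcript annotated past the stem-loop and the 42 without; bars are medians over all points and open symbols are genes listed at 0. The medians of the first group lie between 1.81 and 1.99 and those of the second between −1.38 and −0.71, with 12 genes of the second listed at 0 in vehicle.

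The weakly expressed members were more often detected in the treated tumors. In vehicle 53 of the 66 members had a value above 0, in CDK2i 61 and in EZH2i 61, and the vehicle library was also the shallowest. Over all 29689 genes, 5853 were listed at 0 in vehicle, 5624 in CDK2i and 5682 in EZH2i. Of the 16 members listed at 0 somewhere, 8 were listed at 0 in vehicle alone, HIST1H1D, HIST1H2BM, HIST1H3C, HIST1H3I, HIST1H4A, HIST1H4B, HIST1H4D and HIST2H4B, all named here for that pattern. Each of these 8 had an estimated 1 to 7 fragments in either treated tumor. No share of all genes listed at 0 in vehicle alone is given, so this count shows nothing particular to the members. Over the 46 members that did not pass the limit for expressed genes the sum was 21.4 FPKM under vehicle, 30.5 under CDK2i and 32.6 under EZH2i. Of these members 30 were listed at 0 in no library. Among the 30, 21 were higher in CDK2i, with a median change of 0.33, and 15 in EZH2i, with a median of 0.05. The sums rest on about 178, 281 and 274 fragments, and their changes of 0.51 [0.24, 0.78] and 0.60 [0.33, 0.88] leave out 0. Over all 66 members, 13 share over 50% of their 100-base windows with another gene. Of these 13, 1 is expressed, HIST1H4K with 91.3%, and so is outside those sums. The division of such reads is not given in the sources used here, and its part in the sums was not tested. HIST1H4C lies inside the annotated span of HIST1H2BC on the opposite strand, and whether the counting used strand is not given either.

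Genes outside the clusters that serve the same chromatin had other median changes than the members. Most replacement variants are made throughout the cycle from polyadenylated mRNA, which does not hold for every gene listed. Of the 11 listed, 10 were expressed. Their median change was −0.23 in CDK2i, with 4 higher and 6 lower, and 0.26 in EZH2i, with 6 higher and 4 lower. Over all expressed genes the medians were −0.11 and 0.19, and after centring those of the variants were −0.04 and 0.02. Of the 10 that could be called against vehicle, CENPA, the H3 variant of centromeres, was the 1 called, lower in CDK2i, against 8.07% of all genes. It had 9.43 FPKM in vehicle, 4.28 FPKM in CDK2i and 16.2 FPKM in EZH2i. H3F3A, which encodes the variant H3.3, was more abundant than any member, at 295, 328 and 287 FPKM. All replacement variants together summed to 712 FPKM under vehicle, 689 under CDK2i and 781 under EZH2i.

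Among the genes that drive histone transcription and process histone mRNA, most values were lower in CDK2i and higher in EZH2i. Of 21 listed, 16 were expressed. In CDK2i 4 were higher and 12 lower, with a median of −0.12 that became 0.07 after centring. In EZH2i 12 were higher and 4 lower, with a median of 0.51 that became 0.26 after centring. The medians over all expressed genes were −0.11 and 0.19. At log2 FPKM 3 the rule called 0 of 9 lower in CDK2i and 1 of 12 higher in EZH2i, against 8.07% and 8.93% of all genes. At log2 FPKM 1 the rule called 3 of 15 lower in CDK2i and 4 of 20 higher in EZH2i, against the 13.2% and 12.7% of all genes given above. NPAT, the activator that CDK2 phosphorylates, had 1.13 FPKM in vehicle, 0.35 FPKM in CDK2i and 3.22 FPKM in EZH2i. CASP8AP2, a factor of histone mRNA processing, had 1.53, 0.60 and 5.07 FPKM in the same order. Both were below the limit for expressed genes, so they are outside the 16, and too low for a call in CDK2i against vehicle. The 3 called lower in CDK2i at log2 FPKM 1 were HINFP, CCNE1 and CDC25A. The 4 called higher in EZH2i were NPAT, CASP8AP2, CPSF2 and ERI1. SLBP, the protein that binds the stem-loop, had 22.5 FPKM under vehicle, 21.6 under CDK2i and 31.8 under EZH2i, and CDK2 itself 7.38, 7.12 and 11.6. Histone chaperones had medians of −0.26 and 0.37 over 9 genes, which became −0.08 and 0.12 after centring. Genes of S phase had −0.12 and 0.56 over 16, which became 0.07 and 0.31 after centring. Of these 16, 12 were lower in CDK2i and 13 higher in EZH2i.

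**Figure D5:**
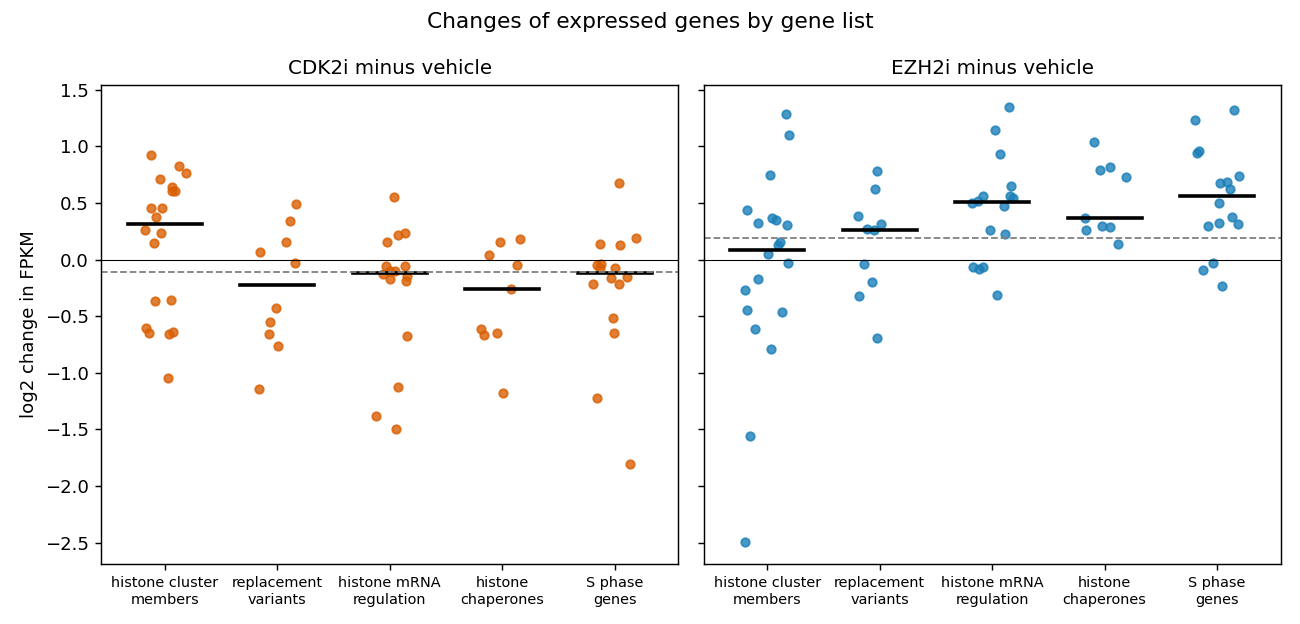
Log2 change in FPKM against vehicle of the expressed genes of 5 gene lists, 1 point per gene, with bars at the medians and a dashed line at the median of all expressed genes. In CDK2i the histone cluster members have a median of 0.32 and the other lists lie between −0.26 and −0.12, and in EZH2i the medians are 0.09 for the members and between 0.26 and 0.56 for the other lists, before the trend with GC content and length is removed.

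Other features of the libraries moved with these values. Expressed members were short and rich in GC, with a median of 486 bases and 57.7%, against 3072 bases and 49.8% over all expressed genes with a transcript. Across genes, which are not independent replicates, the change in EZH2i had a Spearman correlation of −0.58 with GC content and of 0.49 with transcript length. For CDK2i these were 0.03 and 0.09. Removing a trend fitted over 10187 other genes moved the members' median from 0.09 to 0.71 in EZH2i and from 0.32 to 0.54 in CDK2i. In EZH2i the other lists plotted by gene group then had medians of 0.34 for replacement variants, 0.25 for histone mRNA genes, 0.15 for chaperones and 0.25 for S phase genes, all below that of the members. With the trend removed, the change of HIST3H2A in EZH2i was −0.77 and that of HIST1H2BK was 1.03. Among small RNA genes that lack a poly(A) tail, 5 of the 7 that could be called in CDK2i at log2 FPKM 1 were called higher, against the 4.15% of all genes. RN7SL1, RPPH1 and SCARNA10 were lower by −0.20, −0.30 and −0.77 without a call, and the sum of the list, nearly all from RN7SL1, was 955 FPKM under vehicle, 868 under CDK2i and 378 under EZH2i. SNORD3A had 1.96 FPKM in vehicle, 16.7 FPKM in CDK2i and 3.92 FPKM in EZH2i. All 13 mitochondrially encoded genes were lower in both treated tumors, by a median of −0.81 in CDK2i and −0.48 in EZH2i, and summed to 103575 FPKM under vehicle, 61129 under CDK2i and 77312 under EZH2i. Whether GC content, length, mitochondrial RNA, the epithelial markers given above or the capture of RNA without a poly(A) tail had a part in the changes of the histone genes was not tested.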

How the data were processed

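Processed expression values of 3 libraries were used, 1 each for vehicle, CDK2i and EZH2i. The authors deposited 1 value of log2 FPKM for each gene symbol and library. Per the labels the authors' tools include CASAVA and STAR and the genome was hg19 (GRCh37). Their versions, the counting tool, its use of strand and the selection of RNA are not given in the sources used here. A value of −9 was read as 0 FPKM.

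The members and gene lists were chosen with earlier results of these data known. Changes are differences of log2 FPKM without a pseudocount. With 1 library per group no test was run, and a fold past 2 with the higher value above log2 FPKM 3 counted as a call. Depth came from low values, of which 84.1% in vehicle, 85.8% in CDK2i and 83.5% in EZH2i were whole fragments within 0.1. Fragments of a member are estimates from the length of its shortest coding transcript in GENCODE 44, or its shortest transcript where none is coding. Of the 48 members with a single transcript, 15 gave whole numbers in all libraries. The length behind the deposited FPKM is not given in the sources used here. Fragments and intervals of members with longer annotated transcripts, HIST3H2A among them, thus depend on this choice. Intervals for single genes are exact binomial (Clopper-Pearson) and those for sums are normal approximations from Poisson counts, with the median member length for the 2 members without one. HIST1H2BF and HIST1H2BG were not matched to a position, leaving 64 members. A trend of the change with GC content and log2 length, a polynomial of degree 3, was fitted without members and ribosomal protein genes. The depth and trend steps were tested on simulated data. The simulated trend was linear, so this did not test the fit of degree 3 for genes as short and rich in GC as the members. Named genes are all expressed members, the most abundant of each type and the 3 largest changes in each direction per comparison above log2 FPKM 1. Values were computed with Python 3.11.15, numpy 2.4.6, pandas 2.3.3 and scipy 1.17.1, and figures were drawn with matplotlib 3.10.9.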

Additional observations from a re-analysis of the deposited data

How the results depend on the processing

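No paired analysis was possible because each group has 1 library, and for the same reason no library could be left out. Results were recomputed under those of the other scalings, filters, a pseudocount and removal of the trend that applied to them. Of these values 112 stayed within their limits and 43 did not. Those limits allow a change of sign, so a value within them need not be stable. Of 24 small RNA genes listed, 10 were in the expression table and 3 were expressed, so a median over the expressed ones is the value of 1 gene. The small RNA median in EZH2i was 1.0 over expressed genes and −0.06 over all those listed at 0 in no library. In CDK2i these medians were 2.51 and 1.2, and both shifts counted as within the limits. The changes by type were set only against the fold of their sums, the sums were not run with a pseudocount, and the small RNA genes had too few trend values. With a minimum of log2 FPKM 1 the members called were 2 higher and 1 lower in CDK2i. They were 4 and 2 in EZH2i, and 2 and 5 for EZH2i minus CDK2i. With no minimum the counts were 20 and 12, 21 and 4, and 15 and 17, where a value listed at 0 also counted as a change. No share over all genes is given for the counts with no minimum or for those that follow, so they show nothing particular to the members. With the GC and length trend removed, 2 members were called higher in CDK2i, 2 higher and 0 lower in EZH2i, and the EZH2i median was 0.71. Without HIST3H2A 0 were lower in EZH2i. For EZH2i minus CDK2i, 0 were higher with 1 added to FPKM, and 0 higher and 1 lower with every library centred on the median over genes. That centring also lowered the levels set against the limit of log2 FPKM 3. With the limit kept on the deposited values, an alternative chosen after seeing the data, centring gave 1 higher in CDK2i, 2 lower in EZH2i, and 0 higher and 4 lower for EZH2i minus CDK2i.

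The summed FPKM of vehicle, CDK2i and EZH2i was 39.2, 46.0 and 26.3 relative to the median gene, and 204, 279 and 242 without HIST3H2A. With the sums of all genes made equal it was 346 in vehicle and 326 in EZH2i. Without ribosomal protein and mitochondrial genes in that scaling it was 362 in CDK2i and 317 in EZH2i. With the trend removed it was 448 in CDK2i and 457 in EZH2i, above the 377 of vehicle. Scaling moved all changes by −0.14 to 0.18 in CDK2i and by −0.25 to 0.24 in EZH2i, and the EZH2i median of the members was −0.16 after centring. The median of the histone mRNA genes was 0.75 in EZH2i with equal sums, and for EZH2i minus CDK2i 0.23 after centring and 0.26 without the trend. That of the small RNA genes was 1.24 in EZH2i with equal sums. The H1 sum changed by 0.23, 0.30 and 0.07 in the 3 comparisons, against medians of 0.15, 0.30 and 0.15. Members with under about 30 fragments, HIST1H4C, HIST1H2BN and HIST4H4 among them, have wide intervals at this depth.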

Other observations

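The symbols that mark pseudogenes of these clusters, 6 in all, were outside the rule. HIST1H1PS1 had the highest level of them, with a log2 FPKM of 1.91 in vehicle, 0.83 in CDK2i and 2.32 in EZH2i. HIST1H2APS4 had −0.96, −0.15 and 0.71, and HIST1H4PS1 had −1.15, −0.34 and −2.21. HIST1H2BPS2, HIST1H2BPS3 and HIST1H3PS1 were each listed at 0 in at least 1 library.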
